A study of Gossypium hirsutum with 3 samples.

Results

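Cotton genes described as membrane transporters, ion pumps, antiporters, permeases, carriers or channels, or as ATPases, were examined in 1 dpa (day post anthesis) fiber initials and 1 dpa ovules. There were 28 such genes among the 11143 genes represented on the array. They were taken by keyword from the descriptions of the 1038 genes that the study tabulated as differentially expressed or as known fiber genes, leaving out hexose and auxin carriers, water channels, sterol carriers, acyl carrier proteins and proteasome ATPases. The table had been selected on fold changes in these same arrays and in arrays of 10 dpa fiber, which were not analysed here. The ratios of the 28 genes are therefore a description of genes chosen for their change, and their calls in the fit across all genes, given below, are part of that description and not independent evidence of change.

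The study compared RNA of fiber initials with RNA of whole ovules of field grown upland cotton to find genes important to fiber initiation. Fiber initials were obtained by vortexing frozen ovules with glass beads, and the whole ovules still carried their own initials. Polyribosomal RNA was the isolation named for every sample, although the labels also call it total RNA, and which of the cultivars DES119 and ST4793R was on an array is not given. Each of 3 two-color arrays received Cy3 (green) cDNA of one tissue and Cy5 (red) cDNA of the other, with the dyes swapped on 1 array.

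The direction of the ratios was not settled by the labels and codes. Each spot in the scanner files carries a code for the RNA in each channel, and all ratios here are those of the RNA coded SP2 over the RNA coded SP1, given as log2 (a log2 ratio of 1 is a 2-fold difference). By the labels, SP2 was fiber on array 1 but ovule on arrays 2 and 3. The labels put fiber in green on arrays 1 and 2, yet the red over green ratios of these arrays were opposed across 11081 genes (r = -0.58), as were those of arrays 2 and 3 (r = -0.81), while arrays 1 and 3 ran together (r = 0.52). Genes are not independent replicates, and these values are a description. If SP1 were fiber, every sign below would be turned, and each gene given as higher in SP2 RNA would be lower in fiber. The study's methods describe biological replicates from harvests of different days. The RNA coded SP2A was nevertheless on both arrays 1 and 2, so that the codes leave it uncertain whether these SP2 RNAs were separate harvests, and if they were not the errors are in part technical.

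Transporters move solutes across a membrane along a gradient or in exchange for another solute, whereas pumps spend ATP to build the gradients. In a plant cell the proton pumps of the vacuole and the plasma membrane energize most of the secondary transporters, and ABC (ATP-binding cassette) transporters move larger organic compounds with ATP. The cotton fiber grows by uptake of water into a large vacuole, with potassium, malate and sugars as the main solutes, which is why these gene families have been studied in the fiber.

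The arrays had median background-subtracted signals between 182 and 249 intensity units in green and between 131 and 311 in red. Array 3 had the dimmest red channel, with 86.5% of gene spots above background. The green negative controls had an SD of 101.7 on array 1, against 5.85 on array 2 and 5.32 on array 3. Known genes of the fiber and of dividing cells were read beside the transporters. Of the known genes that the study put on the array, 5 were read as fiber markers, chosen with earlier results known. They had mean log2 ratios between 0.37 and 1.29, but GhACY was at -0.73 on array 1, against 1.84 and 1.78 on arrays 2 and 3. Of the other known genes of that set, GhAF034131 (-1.08), GhAF034133 (-1.09), GhAF034134 (-0.77) and GhSCP (-0.15) had negative means. The rest of those tested had positive means, between 0.01 (GhBM356400) and 0.49 (GhBM356396). The 6 histone genes, markers of dividing cells, were lower in SP2 RNA on each array, with a median log2 ratio of -2.12. The RNA of each sample came from many cells, and fewer cells of a type and less RNA per cell cannot be told apart. The part of these markers in the values of the transporters was not tested.

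All 28 transporter genes had at least 1 probe above background in both RNAs on all 3 arrays, and none had a saturated spot. All 94 of their probes passed the filter on dim probes. For TMIRS_061_A07.F, Contig4980 and TMIRS_200_D09.F, 3 of 4 probes were above background in SP1 RNA on array 3. The lowest SP2 signals of these genes on array 1 were 147 (TMIRS_241_B10.F) and 189 (Contig3288). They were read in green, where the negative controls of that array had an SD of 101.7. In the limma fit across all genes (Benjamini-Hochberg adjusted p under 0.05), 17 of the 28 were called, against 12.3% of the 11081 genes tested. SP2 RNA was higher for 8 of them, a direction called for 3.95% of all genes, and lower for 9, a direction called for 8.31%. Read as SP1 over SP2 RNA, the same calls are 9 higher and 8 lower. Because the genes had been selected on such ratios, nothing is read from this excess. Among the 1008 other tabulated genes tested, 599 were called, 311 higher and 288 lower, so the transporters moved about as often as the table they came from. At the threshold that the study stated (a difference of 2-fold or more and an unadjusted p of 0.05 or less), 7 transporter genes were higher and 9 lower in SP2 RNA, beside 1.73% and 4.73% of all genes. With median centring in place of loess 7 of the 17 genes remained called, 1 higher and 6 lower, and with the deposited ratios centered on their median 13 of the 17 remained. With median centring the mean ratio was 1.39 for Contig2427 and 1.27 for Contig15438, which both lost their call, and -2.14 for TMIRS_068_F03.F, which kept it, and none of the 17 genes changed its sign under either. An ordinary test without eBayes moderation called 0 of the 28, with 13 at an unadjusted p under 0.05. With the arrays turned by the labels, limma called 0 of the 28 genes, 1 at an unadjusted p under 0.05.

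The ratio had 1 sign on all 3 arrays for 24 of the 28 genes, 13 higher and 11 lower in SP2 RNA, beside 44% of all genes. Their median log2 ratio was 0.20, close to the 0.19 of the other tabulated genes, with 0.04 for all genes tested. The median hides a split, since the median size of the ratio regardless of sign was 1.07 for the transporters, 0.897 for the other tabulated genes, which were chosen the same way, and 0.173 for all genes. The genes near the median were few. The plot of cumulative shares shows the same gap in the middle.

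**Figure D1:**
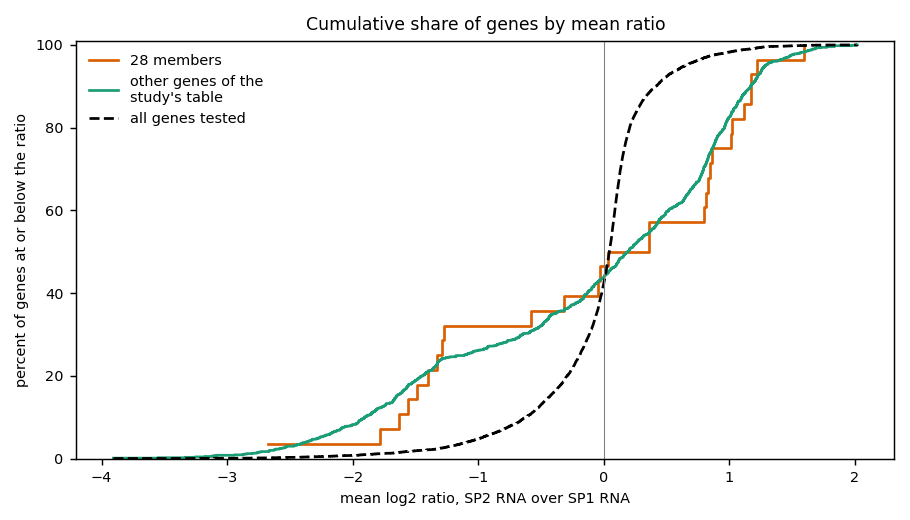
Cumulative percent of genes (vertical axis) at or below a mean log2 ratio of SP2 over SP1 RNA (horizontal axis) for the 28 transporter genes, the 1008 other genes of the study's table and the 11081 genes tested. The 28 genes follow the other tabulated genes, and both depart from the steep curve of all genes. Both come from a table of genes selected on fold changes or as known fiber genes, and the departure is given as a description.

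The proton pump of the vacuole, V-ATPase, is a rotary machine in which a stalk driven by ATP turns a ring of proteolipid subunits that carries protons across the membrane. Of its 4 genes, 1 was called, higher in SP2 RNA. Contig12609, the 16K proteolipid chain P2, had log2 ratios of 0.61, 0.71 and 1.12 on arrays 1, 2 and 3, with a mean of 0.82 ± 0.16 (limma SE, n = 3 arrays). Its background-subtracted signals were 3376, 4170 and 3240 in SP2 RNA, against 2697, 1438 and 1220 in SP1 RNA, so that the RNAs did not overlap, and it was no longer called without array 3 (0.66). Without array 2 or 3, or with a dye term, calls of the transporter genes followed the absolute mean ratio, whatever the spread between arrays. A second proteolipid gene, Contig882, had 0.14, 1.04 and 1.21, mean 0.80 ± 0.23, which was not called. Array 1 stood low for this gene, and without it the mean was 1.13 and was called.

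The remaining V-ATPase genes belong to the stalk. Contig15752, subunit D of the central stalk, had -0.30, 0.92 and 0.46, mean 0.36 ± 0.24, with array 1 opposite to both other arrays. TMIRS_016_H12.F, subunit d, which links the stalk to the ring, had -0.15, 0.10 and -0.04, mean -0.03 ± 0.14, from 1 probe, and its sign turned without array 1 (0.03) and under several scalings. The proteolipid genes of the ring thus had the larger ratios, but the difference between ring and stalk was not tested.

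The P-type pumps form a phosphorylated intermediate during transport, and both of them were called, in opposite directions. Contig15438 matched the Arabidopsis envelope Ca2+-ATPase, a calcium pump first assigned to the plastid envelope. Its log2 ratios were 0.84, 1.05 and 1.46, mean 1.12 ± 0.17, with signals of 2939, 2987 and 2647 in SP2 RNA against 1470, 866 and 741 in SP1 RNA. Every SP2 signal lay above every SP1 signal. Contig404 matched the B subunit of a potassium-transporting ATPase of Pseudomonas, in bacteria the catalytic subunit of a potassium uptake system. It had -1.76, -2.10 and -1.49, mean -1.78 ± 0.16, with signals of 2623, 2489 and 1628 in SP2 RNA against 10176, 5880 and 3595 in SP1 RNA. Its match is weak and the name is uncertain.

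ABC transporters were the largest family together with the transporters of amino acids, peptides and acids, and they split evenly. All 6 kept 1 sign on the 3 arrays, 3 higher and 3 lower in SP2 RNA, and 4 were called. The PDR (pleiotropic drug resistance) type are plant and fungal exporters of hydrophobic compounds such as terpenoids. Contig2427, a PDR-like gene, had 0.65, 1.46 and 1.41, mean 1.17 ± 0.20, with signals of 5345, 5554 and 3679 in SP2 RNA against 3855, 1121 and 1046 in SP1 RNA. Its SP1 signal on array 1 lay above its SP2 signal on array 3, so these signals overlapped across arrays although not within one. Contig16045, matched to PDR-type transporter 1 of tobacco, had 1.03, 1.83 and 0.65, mean 1.17 ± 0.23, and was not called without array 1 (1.24). Both PDR genes were called higher.

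Contig158, an ABC transporter by its rice match, had 0.22, 1.35 and 1.47, mean 1.01 ± 0.26. It passed the study's threshold but was not called after adjustment, although it was called without array 1 (1.41) or without array 2 (0.85). Without array 2 its ratios were 0.22 and 1.47, so that call rests on the size of the mean. Its signals were 9133, 9686 and 6844 in SP2 RNA against 4809, 1906 and 1978 in SP1 RNA. These did not overlap, and the SP1 signal of array 1 was the one that stood apart. By probe, the array 1 ratios of Contig158 were -0.36, -0.0019, 0.019 and 1.23, so that its positive sign there rests on 1 probe.

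The ABC genes lower in SP2 RNA were of no stated subfamily. TMIRS_241_B10.F, by its Arabidopsis match, had -1.65, -1.84 and -1.40, mean -1.63 ± 0.15, with signals of 147, 143 and 80.0 in SP2 RNA against 524, 468 and 194 in SP1 RNA. TMIRS_068_F03.F had the most negative ratio of the 28 genes, with -2.24, -2.79 and -2.99, mean -2.67 ± 0.18, and signals of 12771, 8771 and 7063 in SP2 RNA against 62572, 22950 and 35736 in SP1 RNA. It rests on 1 probe and a weak match to an ABC permease of Pseudomonas, and its SP1 signal on array 1 came near the scanner's limit. Contig16727, also from 1 probe, had -0.07, -0.83 and -0.85, mean -0.58 ± 0.19. It was not called except without array 1 (-0.84).

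Both ion transporters had positive ratios on all arrays. The singleton TSMB, named a potassium transporter by its rice match, had 0.25, 0.65 and 1.59, mean 0.83 ± 0.26. Array 3 was far above the others, and the gene was not called. It was called without array 2 (0.92) and with a dye term in the fit (0.78). These calls rest on the size of the mean, since the ratios remaining without array 2 were 0.25 and 1.59. TMIRS_104_H06.F matched NhaD, a bacterial sodium/proton antiporter, and had 0.26, 1.05 and 1.28, mean 0.87 ± 0.22. It was called higher, but not without array 2 (0.77) or array 3 (0.66). Signals of the TSMB gene were 763, 1210 and 956 in SP2 RNA against 728, 505 and 208 in SP1 RNA. Here SP2 RNA varied less between arrays than SP1 RNA.

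**Figure D2:**
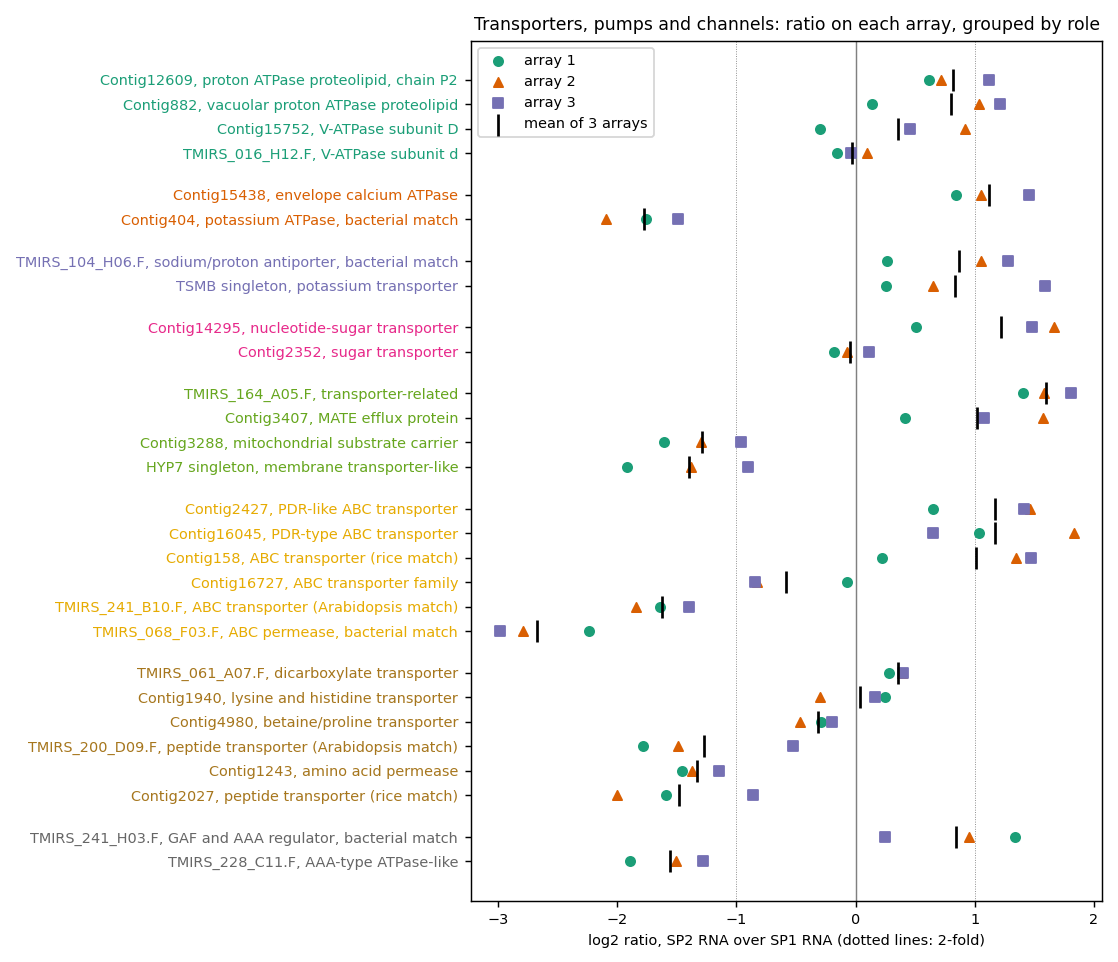
Log2 ratio of SP2 over SP1 RNA (horizontal axis) of the 28 genes (vertical axis, colored by role) on array 1 (circles), array 2 (triangles) and array 3 (squares), with the mean as a vertical bar. Dotted lines mark 2-fold. The V-ATPase and ion transporter genes lie at or above 0 except on array 1 and at TMIRS_016_H12.F, and the called amino acid and peptide transporters all lie below 0.

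The sugar group held 2 genes. Nucleotide-sugar transporters bring activated sugars into the ER and Golgi lumen, where polysaccharides and glycoproteins are made. Contig14295 had 0.51, 1.66 and 1.48, mean 1.22 ± 0.24, and was called higher, with signals of 784, 957 and 716 in SP2 RNA against 455, 180 and 168 in SP1 RNA. Its best match was a protein of the fungus Aspergillus. Contig2352, a sugar transporter, had -0.18, -0.07 and 0.12, mean -0.04 ± 0.14, and its sign turned without array 1 (0.02). It was one of the tabulated genes with almost no difference between these RNAs.

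Of the 6 genes for transport of amino acids, peptides, betaine and dicarboxylates, 3 were called, all lower in SP2 RNA, and none was called higher. Contig1243, an amino acid permease, had -1.46, -1.38 and -1.15, mean -1.33 ± 0.14, with signals of 443, 295 and 198 in SP2 RNA against 1299, 556 and 332 in SP1 RNA. This was the smallest spread between arrays among the 9 genes called lower.

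The peptide transporter family of plants moves peptides and also nitrate. Contig2027, by a weak rice match, had -1.59, -2.0 and -0.87, mean -1.49 ± 0.23, with signals of 1084, 538 and 395 in SP2 RNA against 3390, 1668 and 638 in SP1 RNA. TMIRS_200_D09.F, by its Arabidopsis match, had -1.79, -1.49 and -0.53, mean -1.27 ± 0.25, and lost its call without array 1 (-1.01). Array 3 gave the least negative ratio for both.

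The other 3 genes of this group differed little. TMIRS_061_A07.F, a transporter of dicarboxylates such as malate, had 0.28, 0.39 and 0.40, mean 0.36 ± 0.13, with close agreement of the arrays. Contig1940, a lysine and histidine transporter, had 0.25, -0.30 and 0.16, mean 0.04 ± 0.16, and its sign turned without array 1 (-0.07) and without array 3 (-0.03). Contig4980 matched a betaine/proline transporter of mangrove, which moves compatible solutes, and had -0.29, -0.46 and -0.20, mean -0.32 ± 0.14. None of these was called.

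The last transporters were a MATE (multidrug and toxic compound extrusion) protein, a mitochondrial carrier and genes with no stated substrate, and all 4 were called. TMIRS_164_A05.F, described only as transporter-related, had the highest ratio of the 28 genes, with 1.40, 1.58 and 1.81, mean 1.60 ± 0.15. Its signals were 5486, 5129 and 5390 in SP2 RNA against 1954, 927 and 1083 in SP1 RNA, and they were nearly constant in SP2 RNA. Contig3407, the MATE protein, an exporter of organic compounds, had 0.41, 1.57 and 1.08, mean 1.02 ± 0.23, and lost its call without array 2 (0.74).

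The other pair was lower in SP2 RNA. Contig3288, a mitochondrial substrate carrier, which moves metabolites across the inner mitochondrial membrane, had -1.61, -1.30 and -0.96, mean -1.29 ± 0.17. The singleton HYP7, membrane transporter-like, had -1.92, -1.38 and -0.90, mean -1.40 ± 0.21. Array 1 was the most negative and array 3 the least for both genes.

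The other 2 genes entered by the word ATPase alone and are not named as transporters. AAA-type ATPases remodel or unfold proteins. TMIRS_228_C11.F, AAA-type ATPase-like, had -1.90, -1.51 and -1.28, mean -1.56 ± 0.17, and was called lower. TMIRS_241_H03.F, weakly matched to a bacterial regulator with GAF and AAA domains, had 1.34, 0.95 and 0.25, mean 0.85 ± 0.22, from 1 probe, and was not called, but was without array 3 (1.15) and with a dye term (0.87). Without these 2 genes and all 4 genes of bacterial match, 1 of which is among them, 23 genes remained, of which 7 were called higher and 6 lower in SP2 RNA, with a median log2 ratio of 0.36.

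**Figure D3:**
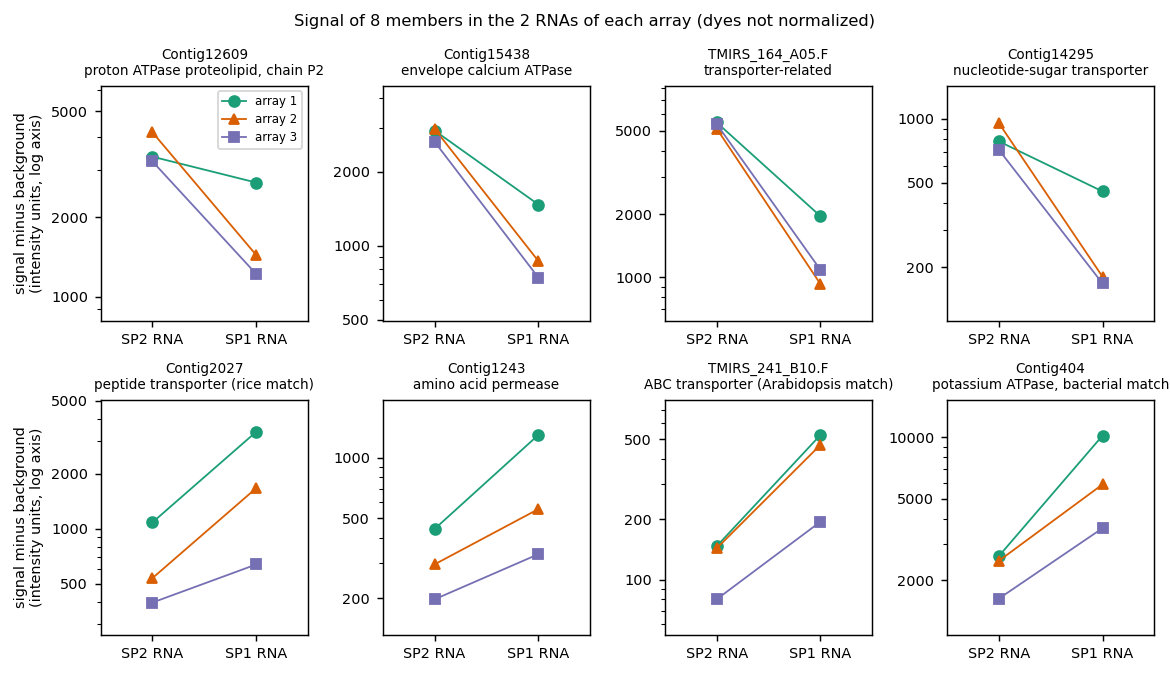
Background-subtracted signal (intensity units, log axis, mean over the probes of the gene) of 8 transporter genes in SP2 RNA (left) and SP1 RNA (right) of each array, joined by array. SP2 RNA lies above SP1 RNA on every array in the upper row and below it on every array in the lower row. The distance between arrays is wider in SP1 RNA for all 8 genes. Dyes were not normalized and differ between arrays.

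The arrays did not weigh the genes alike. Among the 13 genes with positive ratios on all arrays, 11 had their smallest ratio on array 1. The median of the 13 genes was 0.51 on array 1, 1.05 on array 2 and 1.28 on array 3. Among the 11 with negative ratios on all arrays, 9 had the least negative ratio on array 3, with medians of -1.65, -1.49 and -0.96. Array 1 thus gave the smaller positive ratios and array 3 the smaller negative ones.

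The signals differed between arrays mainly in SP1 RNA. The highest signal of a transporter gene exceeded its lowest by a median factor of 1.61 across arrays in SP2 RNA and 2.68 in SP1 RNA, against 1.78 in SP2 RNA and 2.34 in SP1 RNA for all genes tested. The range was wider in SP1 RNA for 27 of the 28 genes. The share of all genes with a wider range in SP1 RNA was not counted, so this is not read as a trait of the transporters. All signals of one RNA lay beyond all signals of the other for 16 genes, 10 with SP2 RNA above, as for 6.52% of all genes, and 6 with SP2 RNA below, as for 2.4%. These signals, unlike the ratios, were not normalized for dye, and the genes had been chosen on the ratios.

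Different probes of a gene mostly gave the same direction. Of the 24 genes with several probes, 21 had all probes on 1 side of 0 (87.5%, beside 59.0% of 10268 genes), which the choice of genes with large ratios favors. The probes of a gene spanned a median of 0.47 on the log2 scale for the transporters and 0.29 for all genes. Contig2027 had the widest range, with probes between -1.97 and -0.54. Its highest probe was at 0.39 on array 1, against -1.84 or lower for its other probes there. Contig4980 had probes between -1.15 and 0.13, with 1 probe far below the others, and those of Contig3288 lay between -2.18 and -0.86. Contig1940 and Contig2352 also had probes of both signs.

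**Figure D4:**
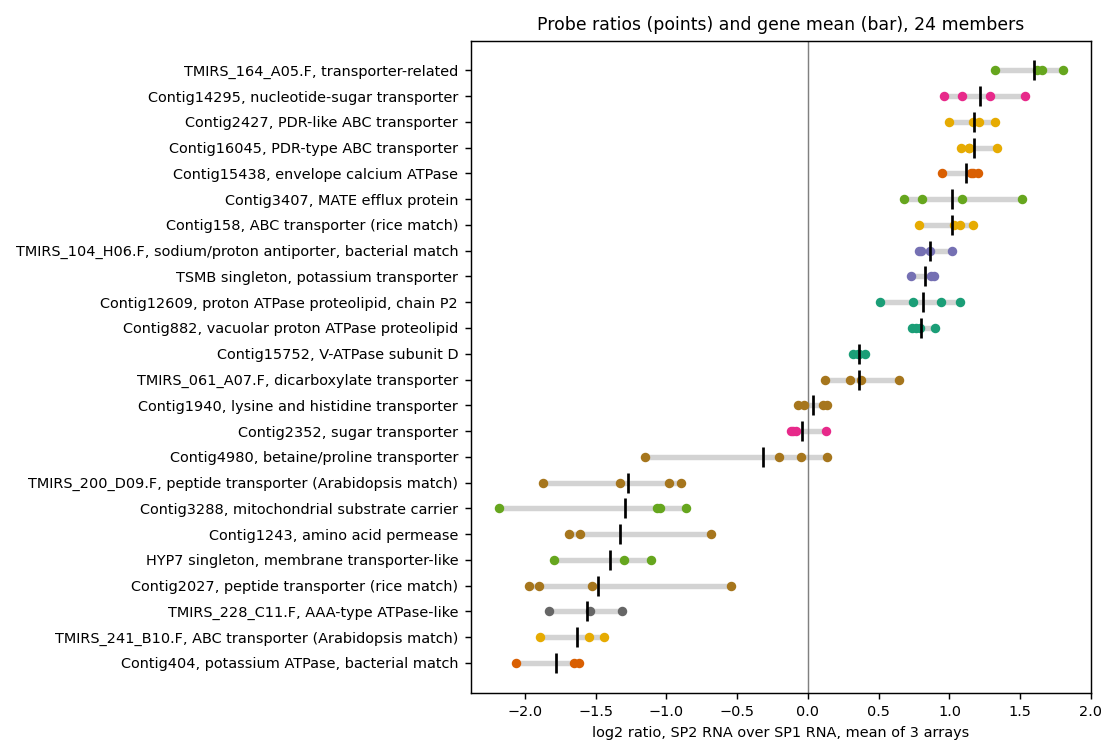
Mean log2 ratio of SP2 over SP1 RNA of each probe (points, colored by role as in the plot of ratios by array) and of the gene (black bar) for the 24 genes with several probes, ordered by gene mean, with the range of the probes in grey. All probes lie on 1 side of 0 for 21 genes, and the widest ranges belong to genes with a negative mean.

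Near the study's limit of 2-fold, Contig158 (2.02-fold), Contig3407 (2.03-fold) and Contig15438 (2.17-fold) lay just above it, while TMIRS_104_H06.F (1.82-fold), TMIRS_241_H03.F (1.80-fold) and TSMB (1.78-fold) lay just below. The gap across the limit was smaller than the SE of the genes beside it.

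Genes that the keywords left out were read the same way, as a description. The hexose transporter Contig13568 had a mean log2 ratio of 1.34 ± 0.24 and a hexose transporter singleton 1.00 ± 0.24, both called higher. Acyl carrier protein Contig15454, which is no transporter, had 0.73 ± 0.16, called higher, and the auxin efflux carrier Contig1620 had 0.44 ± 0.19, not called.

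Among 7 solute carriers of the table outside the rule, 5 were called higher and 0 lower in SP2 RNA. The 7 include the hexose transporters and the auxin efflux carrier just given, so the calls of both hexose transporters are counted again. Also among the 5 was the nucleotide translocator Contig4569, which exchanges ADP and ATP in mitochondria, with 1.09 ± 0.22 and probes between 0.18 and 1.94. The others were an adenine nucleotide translocator singleton, R12F, with 1.23 ± 0.14 from 1 probe, and the phosphoenolpyruvate translocator Contig2502 of plastids, with 0.98 ± 0.17. The cation exchanger CAX7, Contig15029, had 1.01 ± 0.28 and was not called. The 3 genes of mitochondrial protein import were all called higher, with a median of 0.90.

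The 9 water channel genes, which let water pass through the plasma membrane or the vacuolar membrane, had a median of -0.98, with 2 called higher and 4 lower. Contig3229, a PIP1-3 aquaporin, had -2.32, 0.25 and 1.13 on arrays 1, 2 and 3, the widest spread of these lists. These lists come from the same selected table, and no difference between them and the transporters was tested.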

How the data were processed

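Per the labels, the images were quantified with Agilent Feature Extraction. The deposited scanner files hold for every spot a mean intensity in green and red and that of the background around it, with no dye normalization, and a flag for green spots well above background. In the deposited table the authors gave log2 ratios of red to green after subtraction of background. It was matched to the scanner files at 42034 of 42034 spots (tolerance 1e-06), so it was neither centered nor turned for the dye swap.

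Each array had 44290 spots, 2256 of them controls. Background was corrected by normexp (offset 50) and ratios were normalized by loess within each array in limma 3.58.1 (R 4.3.3). Probes were kept if a signal above background was seen in red or green on 2 arrays or more (the deposited flag in green, and in red 2.6 robust SD over negative controls). This left 38713 of 40372 probes. Probes were averaged to genes, which were the 11143 names of the array, and 11081 were tested. The array was the replicate (n = 3), and precision is limited by this number. Log2 ratios, turned by the sample codes, were tested against 0 with lmFit and eBayes, which gave the SE, with Benjamini-Hochberg adjustment over all genes tested. Spots of 65000 or more were called saturated. The fit was tested on simulated data.

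Names of genes are those of the array, and descriptions and the matched organism came from the study's table, whose fold changes and p-values were not used. Of its 1038 genes, 1036 were tested, 28 of them transporter genes. All 28 are named, by a rule written with the other lists. The members, roles and lists were chosen with earlier results of these data known. Alternatives were median centring, the deposited ratios with and without centring, no filter, the median over probes, saturated spots left out, arrays turned by the labels, a dye term, an ordinary test without moderation, the study's threshold, and each array left out.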

Additional observations from a re-analysis of the deposited data

How the results depend on the processing

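With 3 arrays and 1 RNA perhaps on 2 of them, calls depend on how errors are pooled and dyes scaled, and genes are better compared by their per-array values. The causes of the changes below were not tested. The fit called 1359 genes, 67.8% of them lower in SP2 RNA, with 2747 at an unadjusted p under 0.05. Median centring called 329 genes and 7 transporter genes, the deposited ratios 246 and 5, and the deposited ratios after median centring 773 genes (78.9% lower) and 13 transporter genes. The deposited ratios moved the transporter median to 0.47, with the median of all genes at 0.25. An ordinary test without moderation called 2 genes and 0 transporter genes (1712 and 13 at an unadjusted p under 0.05), and the study's threshold 716 genes. With a dye term 1536 genes and 21 transporter genes were called. In this fit, and without array 2 or array 3, the adjusted p of the transporter genes followed the size of the mean ratio alone. Such calls do not weigh the agreement of the arrays. The filter, the probe summary and saturated spots left 15 to 17 transporter genes called. Leaving out 1 array at a time gave 994 to 1999 called genes, 16 to 18 transporter genes and a transporter median between 0.14 and 0.21. Without array 1, 43.9% of the called genes were lower in SP2 RNA, without array 2 77.7% and without array 3 77.1%. The ratio within an array already pairs its RNAs, so no further block was fitted.

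Signs turned for TMIRS_016_H12.F with median centring (0.15), the deposited ratios (0.30), the same after centring (0.047) and a dye term (0.0013), and leaving out 1 array gave -0.095 to 0.030. They turned for Contig2352 with the deposited ratios (0.21), with -0.12 to 0.023 when 1 array was left out, and for Contig1940 with a dye term (-0.049), with -0.071 to 0.20 when 1 array was left out. None of these genes was called.

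Arrays turned by the labels called 0 genes by limma, with 538 at an unadjusted p under 0.05 and 1 of them a transporter gene, and the transporter median was -0.073. This turned 24 transporter genes, which follows from turning 2 of 3 arrays. The ratio was then -0.88 for Contig14295, -0.87 for Contig158, -0.75 for Contig3407, -0.74 for Contig2427, -0.70 for Contig882, -0.69 for TMIRS_104_H06.F, -0.66 for both TMIRS_164_A05.F (-0.663) and TSMB (-0.661), -0.56 for Contig15752, -0.55 for Contig15438, -0.48 for Contig16045, -0.41 for Contig12609 and -0.17 for TMIRS_061_A07.F. It was 0.078 for TMIRS_200_D09.F, 0.12 for HYP7 and Contig4980, 0.22 for Contig3288, 0.30 for TMIRS_228_C11.F, 0.36 for Contig1243, 0.42 for Contig2027, 0.53 for TMIRS_241_B10.F and Contig16727, 0.61 for Contig404 and 1.18 for TMIRS_068_F03.F.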
